A study of Rattus norvegicus with 10 samples.

Results

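The stathmin family, Stmn1 to Stmn4, was followed in the axonal RNA of rat dorsal root ganglion neurons, the sensory neurons whose cell bodies lie beside the spinal cord. Members were taken as every probe set with a single gene symbol of the family in the platform's annotation, which gave 5 probe sets for 4 of the 14217 genes measured. Stmn1, Stmn3 and Stmn4 had 1 probe set each and Stmn2 had 2. The series holds 5 arrays with axonal RNA from embryonic day 16 rats and 5 from adult rats. In both groups ganglion explants grew for 4 days in a chamber with compartments, and RNA came from axons over 1 cm long that had reached the outer compartment. The labels name no drug or genetic change in either group. The labels call the samples biological replicates but do not give the adults' age, the strain, or whether animals were pooled, so p-values measure the spread between these samples.

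Stathmins bind free tubulin dimers and promote the shrinkage of microtubules, the tracks and scaffold of the axon. Phosphorylation by kinases such as JNK, Cdk5 and protein kinase A releases the tubulin. Stmn1 (stathmin, Op18) is cytosolic and is found in many dividing cells as well as in neurons. Stmn2 (SCG10), Stmn3 (SCLIP) and Stmn4 (RB3) are mostly neuronal, carry a palmitoylated membrane anchor at the N terminus, and travel to growth cones on vesicles. Stmn2 is widely used as a marker of regenerating sensory axons.

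All 5 stathmin probe sets were above background on all 10 arrays, and all 5 had a lower mean in adult than in embryonic axons. Background was the 95th percentile of 94 probe sets for genes restricted to other tissues, read on each array, because the table holds no detection calls. The mean difference, adult minus embryonic, ran from -1.51 on the log2 scale for Stmn1 to -2.93 for Stmn3. None passed the test. By limma with Benjamini-Hochberg adjustment over 31042 probe sets, 0 of 5 had an adjusted p under 0.05, against 0.831% of all probe sets. At an unadjusted p under 0.05, 4 of 5 were lower in adult axons, against 5.39% of all probe sets and 13.0% of the 3293 that were above background on all 10 arrays. The median difference of those 3293 was -0.14. The stages overlapped for all 5 stathmin probe sets, while 1.42% of all probe sets were lower in adult axons with no overlap.

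**Figure D1:**
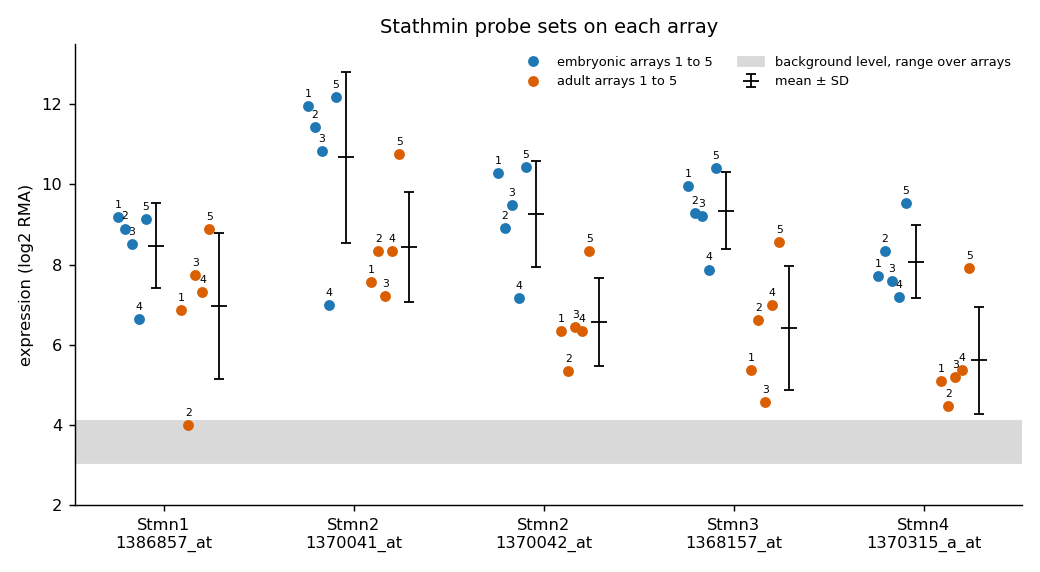
Expression (log2 RMA, vertical axis) of the 5 stathmin probe sets on each array, with the replicate number above each point, the mean and SD of each stage beside the points, and the range of the background level in grey. In each probe set embryonic replicate 4 is the lowest blue point and adult replicate 5 the highest orange point, and every adult mean lies below the embryonic mean.

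Stmn1, the cytosolic member, had the smallest mean difference. On embryonic replicates 1 to 5 its probe set 1386857_at read 9.19, 8.90, 8.52, 6.65 and 9.13, and on adult replicates 1 to 5 it read 6.86, 4.02, 7.75, 7.33 and 8.89 (log2 RMA). Embryonic replicate 4 stood below the other embryonic arrays and below 4 of the 5 adult arrays. Adult replicate 2 was the lowest array of all, 0.22 above its background level, and the only adult array outside the embryonic range. The means were 8.48 ± 1.06 (SD, n = 5) in embryonic and 6.97 ± 1.81 in adult axons. The difference was -1.51 ± 0.83 (SE) with a 95% interval from -3.34 to 0.32, and limma's adjusted p was 0.64. Without adult replicate 2 the difference was -0.77 (limma, adjusted p = 0.79), the smallest value that leaving out 1 array gave.

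Stmn2, the growth cone protein SCG10 and marker of regenerating axons, was read by 2 probe sets. Probe set 1370041_at read 11.96, 11.43, 10.83, 6.99 and 12.19 on embryonic replicates 1 to 5, and 7.57, 8.34, 7.23, 8.34 and 10.75 on adult replicates 1 to 5. Embryonic replicate 4 was below every adult array, while the other 4 embryonic arrays were above every adult array. The means were 10.68 ± 2.13 (SD, n = 5) and 8.44 ± 1.38, a difference of -2.23 ± 0.99 (SE; 95% interval -4.43 to -0.04; limma, adjusted p = 0.49). Without embryonic replicate 4 it was -3.16 (limma, adjusted p = 0.065). That was the lowest adjusted p that leaving out 1 array gave, and the highest was 0.73 (limma).

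The second Stmn2 probe set, 1370042_at, read 10.29, 8.91, 9.48, 7.16 and 10.43 on embryonic replicates 1 to 5, and 6.34, 5.36, 6.44, 6.35 and 8.35 on adult replicates 1 to 5. Here 4 of 5 adult arrays lay below the lowest embryonic array, and only adult replicate 5 reached into the embryonic range. The difference was -2.69 ± 0.69 (SE; 95% interval -4.20 to -1.17), or 6.44-fold lower in adult axons, with a limma adjusted p of 0.13. Leaving out embryonic replicate 4, the lowest embryonic array, gave -3.21 (limma, adjusted p = 0.032). With that omission 339 of all probe sets were called, against 258 on all 10 arrays. The adjustment does not cover the choice of array. No other omission of 1 array passed (limma, adjusted p from 0.054 to 0.27). Over the 10 arrays the 2 Stmn2 probe sets had a Pearson correlation of 0.90, and 0.88 after each stage's mean was taken away.

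Stmn3, the close relative of Stmn2 known as SCLIP, had the largest mean difference of the family over all 10 arrays. Its probe set 1368157_at read 9.96, 9.28, 9.22, 7.88 and 10.40 on embryonic replicates 1 to 5. On adult replicates 1 to 5 it read 5.37, 6.61, 4.57, 7.00 and 8.55. Only adult replicate 5 entered the embryonic range, and it exceeded only embryonic replicate 4. The means were 9.35 ± 0.96 (SD, n = 5) and 6.42 ± 1.54, a difference of -2.93 ± 0.72 (SE; 95% interval -4.52 to -1.33) or 7.61-fold, with a limma adjusted p of 0.11. Without adult replicate 5, the highest adult array, the difference was -3.46 and passed (limma, adjusted p = 0.033). With that omission 338 of all probe sets were called, against 258 on all 10 arrays. The adjustment does not cover the choice of array. No other omission of 1 array passed (limma, adjusted p from 0.075 to 0.25).

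Stmn4, whose transcripts are spliced into several forms of RB3, was read by 1370315_a_at, a probe set of the kind that Affymetrix designs to match alternative transcripts of 1 gene. Embryonic replicates 1 to 5 read 7.71, 8.35, 7.58, 7.19 and 9.54, and adult replicates 1 to 5 read 5.10, 4.48, 5.19, 5.38 and 7.91. Adult replicates 1 to 4 lay within a range of 4.48 to 5.38, below every embryonic array, and adult replicate 5 stood apart from them. The means were 8.07 ± 0.92 (SD, n = 5) and 5.61 ± 1.33, a difference of -2.46 ± 0.65 (SE; 95% interval -3.89 to -1.03) or 5.51-fold, with a limma adjusted p of 0.14. Without adult replicate 5 it was -3.04 (limma, adjusted p = 0.017), among 338 probe sets called. Here too the adjustment does not cover the choice of array. No other omission of 1 array passed (limma, adjusted p from 0.14 to 0.29). The probe set does not tell the forms apart.

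**Figure D2:**
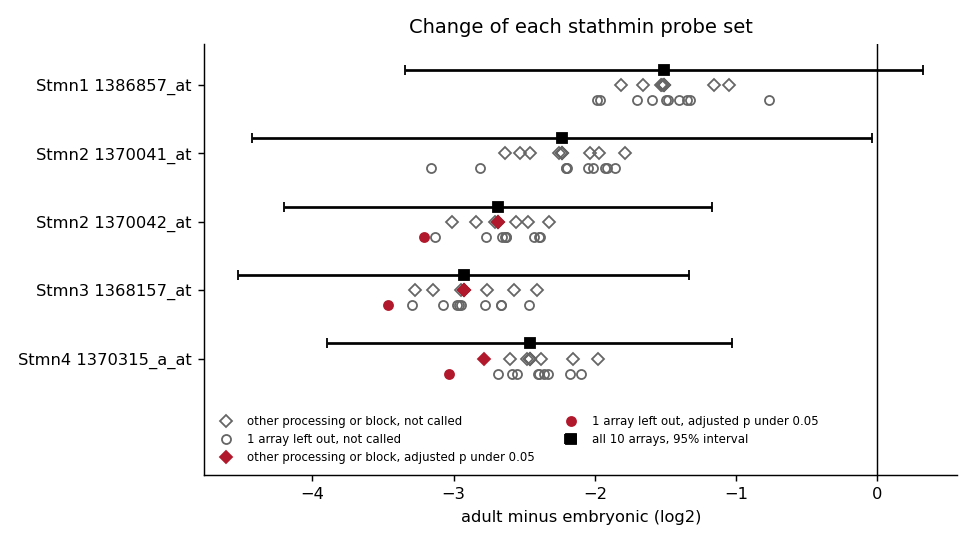
Difference between stages, adult minus embryonic on the log2 scale (horizontal axis), for each stathmin probe set: black squares with 95% intervals for all 10 arrays, diamonds for other scalings, models or blocks, circles with 1 array left out, and red for an adjusted p under 0.05. All 101 alternative values lie below 0, between -3.46 and -0.77, and 7 of them are red. These values reuse the same 10 arrays, and some repeat the main difference, so they are not separate checks.

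The arrays fell into 4 with a wide spread of values (embryonic replicates 1 and 5, adult replicates 4 and 5) and 6 with a narrow one, so each difference was also read within these sets. Among wide arrays the log2 differences were -1.05 for Stmn1, -2.53 and -3.01 for the 1370041_at and 1370042_at probe sets of Stmn2, -2.41 for Stmn3 and -1.98 for Stmn4. Among narrow arrays they were -1.81, -2.04, -2.47, -3.28 and -2.78 in the same order. Every value was below 0 in both sets. Among wide arrays limma called 0 of all 31042 probe sets, the stathmins included. Among narrow arrays Stmn4 alone of the family passed (limma, adjusted p = 0.049), among 210 of 31042 probe sets called. With the spread as a block, Stmn3 and the second Stmn2 probe set passed (limma, adjusted p = 0.024 and 0.044). That model called 401 of all probe sets, against 258 without the block.

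Whether the members differed in the size of their change was tested on the per-array difference between their brightest probe sets, by a two-sided exact permutation test over the 10 arrays for 6 pairs. None of the 6 pairs passed. Stmn3 had the largest mean difference over all 10 arrays, but the second Stmn2 probe set, 1370042_at, differed more among wide arrays (-3.01 against -2.41) and without adult replicate 3 (-2.65 against -2.46). Stmn1 against Stmn3 differed most, by 1.42 on the log2 scale (95% interval -0.79 to 3.63; exact permutation p = 0.21, adjusted over the 6 pairs 0.54). Without adult replicate 2, where Stmn1 was lowest, that gap was 2.21. Its exact permutation p was 0.0079, the smallest that 126 labellings allow, and 0.048 after adjustment over the 6 pairs. That adjustment does not cover the choice of the array left out. No other omission of 1 array passed for this pair (exact permutation p from 0.21 to 0.40, adjusted from 0.42 to 0.81), and none did for any other pair. Stmn2 against Stmn4 differed least, by 0.23 (95% interval -1.64 to 2.09; exact permutation p = 0.87). The intervals leave room for unequal changes of well over 1 on the log2 scale in every pair, so these data do not show that the members changed alike.

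The 4 genes varied together from array to array. Over the 10 pairs of stathmin probe sets the Pearson correlation across 10 arrays ran from 0.61 (Stmn1 with Stmn3) to 0.91 (Stmn4 with the second Stmn2 probe set), and from 0.41 to 0.88 after stage means were taken away. The arrays share their scaling and their spread, so these values are a description. Embryonic replicate 4 was the lowest embryonic array for 5 of 5 stathmin probe sets, as it was for 29.2% of the 3293 probe sets above background everywhere. Adult replicate 5 was the highest adult array for 5 of 5, against 31.8% of those 3293.

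Promoter sequence was looked at because the members varied together. RefSeq promoters (GRCr8) were matched for 2 of 4 members, Stmn1 and Stmn3. Stmn2 and Stmn4 were not matched. The matched pair had the lowest Pearson correlation of the 10 pairs of stathmin probe sets, 0.61, and 0.41 after stage means were taken away. The 250 bases before the annotated start are shown 5′ to 3′ on the gene's strand, chr5:151964929-151965178 (+) for Stmn1 and chr3:188802495-188802744 (-) for Stmn3, with motif matches in capitals.
Stmn1: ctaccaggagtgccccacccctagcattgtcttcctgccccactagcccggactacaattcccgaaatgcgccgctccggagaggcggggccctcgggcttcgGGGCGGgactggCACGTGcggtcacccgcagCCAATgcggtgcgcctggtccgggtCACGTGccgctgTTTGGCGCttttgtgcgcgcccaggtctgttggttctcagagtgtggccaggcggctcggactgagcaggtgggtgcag
Stmn3: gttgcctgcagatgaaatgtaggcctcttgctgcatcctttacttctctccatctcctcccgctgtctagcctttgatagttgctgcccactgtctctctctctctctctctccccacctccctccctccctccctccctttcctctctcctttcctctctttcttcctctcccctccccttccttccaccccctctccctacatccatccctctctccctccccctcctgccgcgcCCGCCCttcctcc
Counting back from -1 at the base before the start, Stmn1 held the E-box CACGTG at -135 to -130 and at -91 to -86. It also held a GC box, GGGCGG, at -147 to -142, a CCAAT box at -116 to -112 and the E2F site TTTGGCGC at -79 to -72. Stmn3 held 1 match, a GC box on the other strand at -13 to -8, within a long run rich in C and T. Both strands were searched and no match overlapped another. Of 33469 rat promoter windows of this length, 5.59% held the E-box, 30.5% the GC box, 34.0% the CCAAT box and 0.412% the E2F site. The other motifs searched were TATAAA, in 12.9% of windows, and TTCAGCACC, the left part of the RE1 element bound by the neuronal repressor Rest, in 0.305%. Neither was in these windows. The 2 promoters thus shared only the GC box among the motifs searched. Whether any motif bears on the stathmin values was not tested.

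The labelled neurons were checked by 9 measured markers of sensory neurons. Of these, 8 were above background on all embryonic and 7 on all adult arrays. By limma 4 of 9 fell in adult axons, against 0.647% of all genes called lower. They were Prph (peripherin, -4.32 ± 0.71 SE, adjusted p = 0.020), Nefl (-3.72 ± 0.69, adjusted p = 0.036), Nefm (-3.42 ± 0.53, adjusted p = 0.014) and Tubb3, which is described with the tubulins. Nefl, the light neurofilament chain, lost the call in 7 of 10 omissions of 1 array (limma, adjusted p from 0.062 to 0.092 in those), with quantile scaling (0.057), with cyclic loess (0.13) and with the replicate block (0.11), while its other probe set differed by -4.27 (limma, adjusted p = 8.2e-04). Prph lost it in 5 of 10 omissions, those of embryonic replicates 2, 3 and 5 and of adult replicates 3 and 4 (limma, adjusted p from 0.052 to 0.063). Nefm lost it in 0 of 10 omissions, and with the replicate block its adjusted p by limma was 0.055. Within the wide and the narrow arrays taken alone, Prph, Nefl and Nefm did not pass (limma, adjusted p from 0.11 to 0.28). Uchl1, an abundant neuronal deubiquitinase, differed by -2.38 (limma, adjusted p = 0.34), and the growth cone protein Gap43 by -1.17 (limma, adjusted p = 0.52). Scn10a differed by -1.37, Tac1 by -0.62 and Calca by 0.18 (limma, adjusted p = 0.52, 0.77 and 0.99). Of the 9 markers, 8 had a lower mean in adult axons and 1, Calca, a higher one.

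The mean of the 9 markers ran from 7.52 to 9.49 on embryonic arrays and from 5.70 to 7.45 on adult arrays (log2 RMA). Its lowest embryonic value was on embryonic replicate 4 and its highest adult value on adult replicate 5, the same arrays that were low and high for the stathmins. Across the 10 arrays its Pearson correlation was 0.93 with the second Stmn2 probe set, 0.91 with Stmn3, 0.86 with Stmn4, 0.85 with the first Stmn2 probe set and 0.62 with Stmn1. After stage means were taken away, the values in the same order were 0.81, 0.75, 0.61, 0.85 and 0.45. After the marker mean was subtracted on each array, the difference between stages was 0.71 for Stmn1, -0.01 and -0.47 for the Stmn2 probe sets, -0.71 for Stmn3 and -0.24 for Stmn4. The SDs of these subtracted values within a stage ran from 0.35 to 1.80, and no test was made. In bulk RNA, fewer neuronal axons in a sample and less RNA per axon cannot be told apart.

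**Figure D3:**
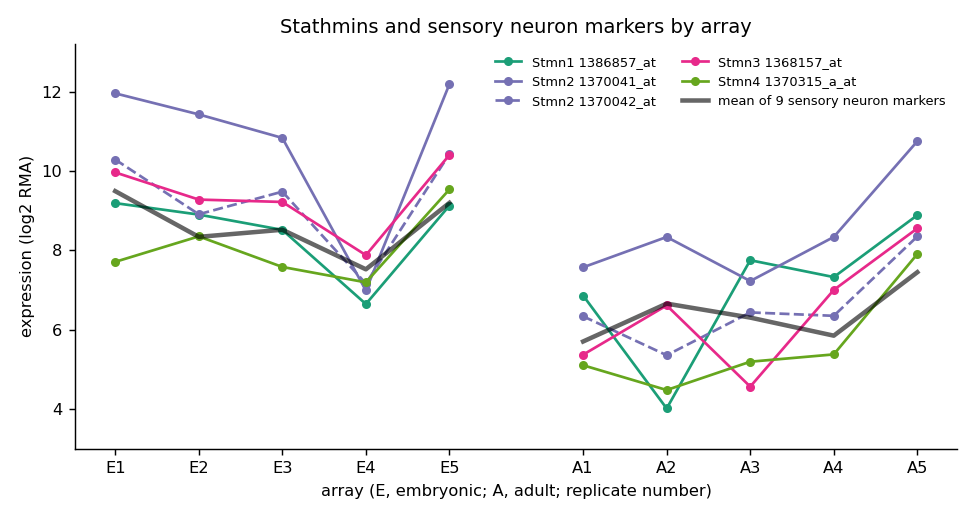
Expression (log2 RMA, vertical axis) of the 5 stathmin probe sets and, in thick grey, the mean of 9 sensory neuron markers on each array (horizontal axis). Lines join arrays only to guide the eye, since replicates have no order and levels of different probe sets are not comparable. Grey and coloured lines dip at embryonic replicate 4 and peak at adult replicate 5, and Stmn1, Stmn4 and Stmn2 1370042_at are at their lowest at adult replicate 2.

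Markers of other cells were read beside the stathmins. Of 8 macrophage markers, 4 rose in adult samples by limma, against 0.612% of all genes called higher, and their mean level was 3.09 to 5.55 on embryonic and 6.42 to 8.55 on adult arrays. Of 8 markers of dividing cells, in which Stmn1 is usually abundant, 0 passed the limma test, 2 were higher at an unadjusted p under 0.05, against 6.28% of all genes, and their mean level was 3.24 to 4.32 on embryonic and 3.41 to 6.40 on adult arrays. The Schwann cell list had 0 of 4 called by limma, with 2 higher at an unadjusted p under 0.05 and a mean level of 4.91 to 5.51 against 6.30 to 7.79. Endothelial markers were weak, with 0 of 4 above background on all arrays of either stage. Fibroblast and satellite glial lists had 0 of 6 and 0 of 5 called by limma, with 2 and 1 higher at an unadjusted p under 0.05. Nuclear factors of sensory neurons had 0 of 5 called, with 1 lower and 1 higher at that level, against 7.01% of all genes lower there. Of 3 red blood cell markers, 1 fell by limma, against 0.647% of all genes called lower. The part of these cells in the stathmin values was not tested. Poly-A controls, which are added to RNA during labelling, averaged 2.21 ± 0.29 (SD, n = 5) on embryonic and 9.70 ± 1.54 on adult arrays (exact permutation p = 0.0079, adjusted over 5 measures 0.040). On embryonic arrays they read 1.96 to 2.56, below the background level of each array (3.21 to 4.11). The labels do not say whether these controls were added to the embryonic samples. Stage and the handling behind this difference, which may include labelling, cannot be told apart for any gene here.

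Tubulin is the partner that stathmins sequester. Of 13 tubulin genes listed, 10 were measured, 2 fell in adult axons by limma, against 0.647% of all genes, and 0 rose. The list median was -0.83, against 0.00 for all genes and -0.14 for probe sets above background on all 10 arrays. The 2 were beta tubulins of neurons. Tubb2b went from 11.88 ± 0.35 (SD, n = 5) to 8.47 ± 1.49, a difference of -3.41 ± 0.62 (SE; limma, adjusted p = 0.032), and it lost the call in 9 of 10 omissions of 1 array. Tubb3 differed by -3.18 ± 0.51 (limma, adjusted p = 0.016) in a probe set of shared sequence, while its other probe set, near background, differed by -0.03 (limma, adjusted p = 0.99). Tubb3 lost the call without embryonic replicate 5 or adult replicate 4 (limma, adjusted p = 0.051 and 0.050). The list of folding cofactors that assemble tubulin dimers also held Tbcel, Arl2 and Arl3. It had 0 of 8 genes called by limma and a median of -1.08. Of these 8, 2 were lower at an unadjusted p under 0.05. The share was 7.01% of all genes and 13.0% of probe sets above background on all 10 arrays.

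Proteins that also take microtubules apart, the severing enzymes and depolymerising kinesins, had 0 of 7 measured genes called by limma, 0 at an unadjusted p under 0.05 and a median of 0.27. Only 1 of the 7 was above background on all embryonic arrays and 2 on all adult arrays, so changes there could hardly be seen. Kinases and phosphatases that act on stathmins had 0 of 23 called by limma, with 6 lower, against 7.01% of all genes, and 0 higher at an unadjusted p under 0.05, and a median of -0.46. Mapk8, the kinase JNK1 that phosphorylates Stmn2, was at 5.93 ± 0.76 (SD, n = 5) in embryonic and 4.78 ± 1.05 in adult axons (limma, adjusted p = 0.52). This difference was -1.15, while its other probe sets differed by -1.58, -0.23 and -0.01 (limma, adjusted p = 0.15, 0.98 and 0.998).

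Among 17 measured partners and regulators, 1 fell by limma, against 0.647% of all genes, and 0 rose. At an unadjusted p under 0.05, 2 were lower and 2 higher, against 7.01% and 6.28% of all genes, and the median was -0.18. Of probe sets above background on all 10 arrays, 13.0% were lower at that p. The gene that fell was Mapk8ip1, the scaffold JIP1 that joins JNK to the kinesin motor. It went from 9.75 ± 0.62 (SD, n = 5) to 6.94 ± 0.46, a difference of -2.80 ± 0.35 (SE; limma, adjusted p = 0.0047). Its stages did not overlap, while 1.42% of all probe sets were lower in adult axons with no overlap. Its call held in 10 of 10 omissions of 1 array (limma, adjusted p from 0.0012 to 0.020), and its other probe set, near background, differed by -0.67 (limma, adjusted p = 0.38). Map3k12, the kinase DLK upstream of JNK in axon injury, differed by -0.09 ± 0.51 (SE; limma, adjusted p = 0.99). Zdhhc3, a Golgi enzyme that attaches palmitate to proteins, was higher by 1.58 ± 0.53 (limma, adjusted p = 0.28). Ndrg1, chosen after its value was seen, differed by 2.89 ± 0.67 (SE; limma, adjusted p = 0.089). Tardbp, the RNA-binding protein TDP-43, which guards STMN2 splicing in human neurons, differed by -1.82 ± 1.14 (limma, adjusted p = 0.71) in 1 probe set and by -0.03 in another. Rest exceeded the background level on 1 of the embryonic and 0 of the adult arrays. Mapk10 and Rgs20 were not analysed here.

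**Figure D4:**
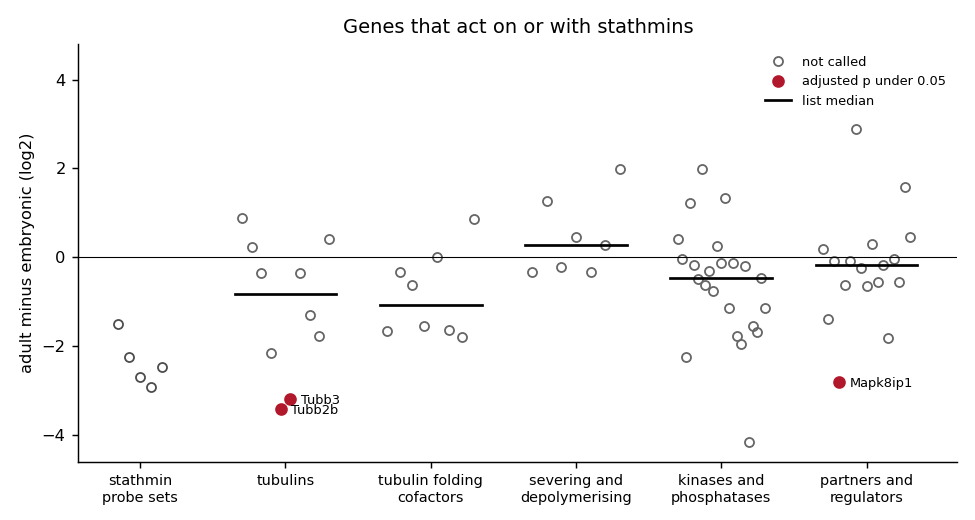
Differences between stages (log2, vertical axis) for the 5 stathmin probe sets and for each measured gene of 5 lists, with list medians as bars and genes of adjusted p under 0.05 in red. Only Tubb2b, Tubb3 and Mapk8ip1 are red, and medians run from -1.08 for the folding cofactor list to 0.27 for severing and depolymerising proteins.

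The named genes whose values followed each member most closely over the 10 arrays, by Pearson correlation among all 14217 genes, were Timm10b (0.95), Araf (0.94) and Sec22b (0.93) for Stmn1. For Stmn2 they were Reep1 (0.97), Snap91 (0.97) and Ddah1 (0.97). Stmn3 was followed by Serf1 (0.97), Sult4a1 (0.97) and Pkia (0.96), and Stmn4 by Bex4 (0.96), Hist3h2ba (0.95) and Pdlim7 (0.95). The 4 members had no gene in common among these 12. These genes were above background on 6 (Ddah1) to 10 (Pdlim7) of the 10 arrays. Reep1, Bex4 and Hist3h2ba were above it on 7, so some correlations include background values. The order is loose: by Spearman correlation Stmn3 kept 1 of its 3 genes, and Stmn1, Stmn2 and Stmn4 kept 0. By Pearson correlation after the stage means were taken away, Stmn1 and Stmn3 kept 0 of 3, Stmn2 kept 2 and Stmn4 kept 1.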

How the data were processed

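Per the submitters' processing notes, the log2 values deposited by the authors come from RMA, the robust multi-array average. Version, options and which arrays were run jointly are not stated in the labels. The base 2 was taken from the range of the values, and array medians lay between 2.86 and 3.14. RMA compresses differences of weak probe sets. Of 31099 probe sets, 57 controls were left out. The platform annotation gave 20826 a single symbol, 436 several and 9780 none, and all 4 members matched the RefSeq gene table of assembly GRCr8 by gene number. A gene outside the family was represented by its brightest single-symbol probe set.

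Stages were compared with limma 3.58.1 (R 4.3.3; lmFit, eBayes, two-sided) on all 10 arrays with no filter, Benjamini-Hochberg adjusted over 31042 probe sets, threshold 0.05. Single values were compared by exact permutation (Python 3.11.15). The fit was tested on simulated data. Wide arrays had a standard deviation of all values above the middle of its range. Alternatives were quantile, median and cyclic loess scaling, spread and replicate blocks, another variance model, array weights, a filter on weak probe sets, averaged probe sets, other background levels, other measures of likeness and leaving out each array. The subtraction of the marker mean was added after seeing the data. The members, lists and tests were chosen with earlier results of these data known. Named genes were the members, up to 3 called genes per list with no overlap, 12 fixed genes and the 3 genes most like each member. Nefm, Scn10a, Tac1, Calca and Ndrg1 were named after their values were seen. The number of arrays limits the precision.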

Additional observations from a re-analysis of the deposited data

Results flagged for a closer look

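Some arrays stood apart from the other 4 of their stage by Dixon's test, which chance alone would do in about 1 of 20 groups. This held for 3 of 10 groups of stathmin values, which share their arrays, and for 4 of 24 groups of other named genes. Timm10b, Snap91, Ddah1, Serf1 and Hist3h2ba were picked because they followed a stathmin over these arrays, so that rate does not apply to them. Embryonic replicate 4 was low for Stmn1 1386857_at (6.65, the next array at 8.52) and for Stmn2 1370041_at (6.99, the next at 10.83). The same array was low for Mapk8ip1 (8.67), Uchl1 (5.22) and Serf1 (7.40). Adult replicate 5 was high for Stmn4 1370315_a_at (7.91, the next at 5.38). It was also high for Tubb3 (6.31), Gap43 (11.60), Snap91 (6.49), Ddah1 (6.53) and Hist3h2ba (5.34). Adult replicate 2 was low for Timm10b (3.02). The cause was not tested.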

How the results depend on the processing

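All 101 alternative values of the stathmin differences were below 0, from -3.46 to -0.77, and 7 passed by limma. With the spread as a block 2 stathmin probe sets passed, Stmn2 1370042_at (-2.69) and Stmn3 (-2.93), among 401 probe sets in all. Narrow arrays gave 1, Stmn4 (-2.78), among 210, and the filter on weak probe sets, which tests fewer, gave 1, Stmn3 (-2.93), among 432. The 4 wide arrays gave 0 of 31042 by limma, and 4657 had an unadjusted p under 0.05. Leaving out 1 array gave 0 to 2 stathmin calls and 150 to 339 in all, with differences of -1.99 to -0.77 for Stmn1, -3.16 to -1.86 and -3.21 to -2.39 for Stmn2, -3.46 to -2.46 for Stmn3 and -3.04 to -2.10 for Stmn4. The labels do not say whether the replicate numbers pair the arrays. Same-number correlations ran from -0.12 to 0.28, and only number 5 matched its own number best, which cannot settle it. With the replicate block 0 stathmin probe sets passed by limma (lowest adjusted p = 0.055, Stmn4), among 191 in all. Tubulins had 1 call with median scaling or the replicate block, 0 among wide arrays and 0 to 2 with 1 array left out. Kinases and phosphatases had 1 with the spread block or the filter, 2 among narrow arrays and 0 to 1 with 1 array left out. Severing and depolymerising proteins had 1 among narrow arrays. Partners and regulators had 0 among wide or narrow arrays, 2 with the filter and 1 to 2 with 1 array left out. Without 1 array, Stmn1 minus Stmn3 ran from 0.76 to 2.21, and Stmn2 minus Stmn4 from -0.47 (without embryonic replicate 4) through -0.03 (without adult replicate 2) to 0.64. Apart from what the alternatives leave out, the cause was not tested. All 5 probe sets stayed above background with the 90th percentile, and with the 99th 4 of 5 did on all adult arrays, the exception being Stmn1 on adult replicate 2.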
